A study of Mus musculus with 12 samples.

Results

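The miR-486 locus lies in an intron of Ank1, the gene of ankyrin-1, a protein that anchors the membrane skeleton of red blood cells and has a small isoform in striated muscle. It was followed here in small RNA libraries from mitochondria isolated from mouse hearts, 6 of db/db mice and 6 of wild-type (WT) mice. In db/db mice the leptin receptor gene is mutated on both alleles, and obesity and diabetes follow. The labels give the genotype, the heart as tissue and the mitochondrial fraction, and they number the samples of each genotype 1 to 6. They name no separate animals, so p-values measure the spread between samples, which may be technical, and they state no age, sex or background strain. The members are 4 of the 932 rows of the deposited table, chosen by name: mmu-miR-486a-5p, mmu-miR-486b-5p, mmu-miR-486a-3p and mmu-miR-486b-3p, the 5p and the 3p arms of miR-486a and miR-486b. All 4 passed the filter of a mean of at least 1 RPM (reads per 1000000 listed reads) used in the fit below. They were picked with their difference between db/db and WT libraries already known from an earlier analysis of these values, so that difference is described here without a test.

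A miRNA precursor is a hairpin from which a duplex of 2 arms is cut, and 1 arm, the guide, is usually kept in an Argonaute protein while the other is degraded. In miR-486 the 5p arm is the guide. It is abundant in red blood cells and in skeletal and cardiac muscle, where it is made together with the muscle form of Ank1. Among its described targets is Foxo1, a transcription factor that restrains muscle growth. In a GRCm38 annotation the precursor of miR-486a, Mir486, lies on chromosome 8 on the strand of Ank1, and the precursor of miR-486b, Mir3107, overlaps it on the opposite strand. Neither overlapped an annotated Ank1 exon. The rows of a and b were therefore read as 1 locus.

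Of the miRNAs against which miR-486-5p is set below, 8 of 2 kinds are printed here. Their mature sequences, from RefSeq with the GRCm38.p6 build, show that these 8 do not form 1 seed family. The first 3 are made from the miR-144 and miR-451a cluster of red blood cells, the other 5 are those with the highest Pearson's r with miR-486-5p over all 12 libraries. Capitals mark the seed, bases 2 to 8, with which a miRNA pairs to its targets.
miR-451a: aAACCGUUaccauuacugaguu
miR-144-3p: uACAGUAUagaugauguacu
miR-144-5p: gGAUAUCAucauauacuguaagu
miR-125b-5p: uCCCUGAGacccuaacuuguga
let-7d-3p: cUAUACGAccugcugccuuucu
miR-92a-3p: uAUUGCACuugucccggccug
let-7a-5p: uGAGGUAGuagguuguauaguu
let-7c-5p: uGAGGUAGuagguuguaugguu
Only let-7a-5p and let-7c-5p among these 8 share a seed.

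Values are in RPM, with no length term. The recovered depth was 412749 to 1382046 reads in db/db libraries and 551591 to 962697 reads in WT libraries. The heart muscle miRNA miR-133a-3p held 296270 to 371152 RPM in db/db libraries and 306292 to 367506 RPM in WT libraries. db/db library 6 and WT library 4 had the fewest reads of their genotype and the highest shares of reads in rows without a miRNA name, 0.157% and 0.160%. Values are therefore also given without these libraries.

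The guide arm was among the most abundant miRNAs of these preparations in both genotypes, and its level was higher in db/db libraries. miR-486a-5p stood at 17055 to 26878 RPM in db/db libraries (median 21550) and at 8605 to 20124 RPM in WT libraries (median 16484). The genotypes overlapped: all 6 db/db libraries lay above the WT median, 4 of them above the highest WT library, WT 1. db/db library 6 was the highest of all and WT library 5 the lowest. By rank in its own library the row was 7th to 15th in db/db and 12th to 21st in WT. Its mean was 21760 ± 3952 RPM in db/db libraries and 15389 ± 3987 RPM in WT libraries (SD, n = 6 each), 1.41-fold higher in db/db. On the log2(RPM + 1) scale the difference was 0.53 ± 0.14 (SE).

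miR-486b-5p followed miR-486a-5p closely in every library. Its mean was 22209 ± 4014 RPM in db/db libraries and 15673 ± 4074 RPM in WT libraries (SD, n = 6 each). In each of the 12 libraries the b row held a little more than the a row, by 222 to 516 reads in db/db and by 104 to 265 reads in WT, an excess of 1.74 to 2.65% and of 1.26 to 2.27%. Both rows ordered the 12 libraries in the same way. How a read that matches both precursors was assigned is not given in the sources used here, and if such reads entered both rows the locus is counted double in the RPM total. Below, the level of miR-486-5p is the mean of its a and b rows, which held 1.72 to 2.71% of listed reads in db/db libraries and 0.866 to 2.03% in WT libraries.

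The 3p arm was scarce, and here the a and b rows parted. miR-486a-3p, the passenger arm, stood at 216 to 276 RPM in db/db libraries (median 256) and at 99.7 to 232 RPM in WT libraries (median 180). Of the 6 db/db libraries 4 were above the highest WT library, WT 4, and 5 of the 6 WT libraries were below the lowest db/db library. The mean was 249 ± 25.4 RPM in db/db and 175 ± 45.7 RPM in WT libraries (SD, n = 6 each), 1.42-fold higher in db/db, with a log2 difference of 0.54 ± 0.24 (SE). It rested on 114 to 307 reads per db/db library and 96 to 146 per WT library.

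miR-486b-3p was the scarcest row, and its medians in the genotypes were close. It stood at 23.9 to 63.0 RPM in db/db libraries (median 43.5) and at 17.7 to 58.0 RPM in WT libraries (median 41.4), and the genotypes overlapped over nearly their whole range. Its log2 difference was 0.12 ± 0.43 (SE), from 24 to 34 reads per db/db library and 17 to 41 per WT library, so a change as large as that of the other rows could not be detected with this spread and depth. The a row of the 3p arm held 4.38 to 9.30 times the reads of the b row in db/db libraries and 3.20 to 8 times in WT libraries.

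**Figure D1:**
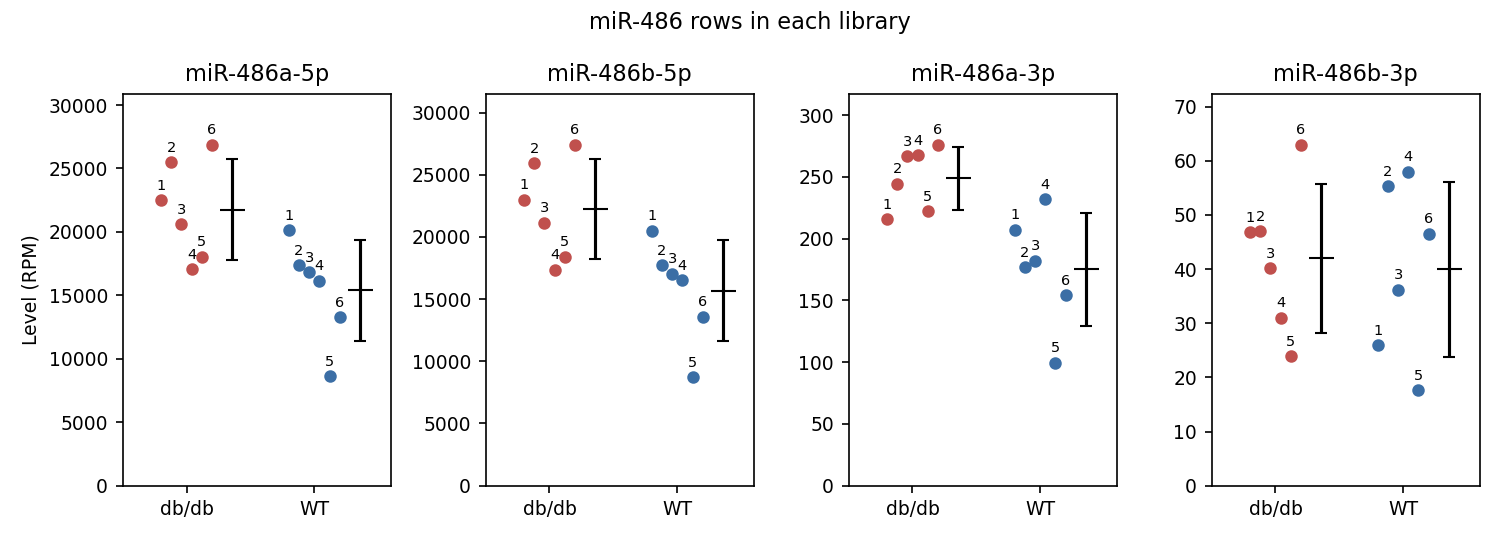
Level in RPM of each miR-486 row in every library, db/db left and WT right in each panel, with library numbers beside the points and the mean ± SD (n = 6 each) in black. The 5p rows and miR-486a-3p were higher in most db/db libraries, with WT 5 lowest in all 4 rows, while miR-486b-3p overlapped widely.

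In the fit over all rows, limma on log2(RPM + 1) with Benjamini-Hochberg adjustment over 646 rows, 0 of the 4 members passed an adjusted p of 0.05, where 1 row of the whole table passed (0.155%). That row was miR-22-3p, a miRNA of heart and skeletal muscle, which was lower in db/db libraries (-0.56 ± 0.13, SE; limma adjusted p = 0.0466). It no longer passed in 17 of 30 alternatives, among them without db/db 1, 2 or 3 and without WT 2, 4, 5 or 6 (log2 difference -0.47 to -0.59). Of the members, 3 of the 4 had an unadjusted p under 0.05, beside 8.98% of all rows. On the recovered reads edgeR called 2 of the 4, the 5p rows, beside 0.464% of all rows. DESeq2 also called these 2, beside 1.24%, or 8 of 646 rows, of which only 170 received an adjusted p. limma called them after median-of-ratios scaling (0.310% of rows), with the library numbers as a replicate block (1.39%) and when the numbers 1 to 3 and 4 to 6 entered the model as 2 levels (1.55%). The 5p rows of a and b moved as one, so in all these counts they stand for 1 arm and not for 2 separate results. They are also part of the shares beside them: 2 of the 3 rows called by edgeR, and the only 2 rows called after median-of-ratios scaling. Since the rows were chosen with this comparison known, these counts are given as a description.

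The ratio of the 2 arms of miR-486a had nearly the same mean in both genotypes. Between db/db libraries it varied more than either arm, with an SD on the log2 scale of 0.28 against 0.26 for the 5p and 0.15 for the 3p arm. Between WT libraries it varied less than either arm, with an SD of 0.18 against 0.43 and 0.43. Over the a rows there were 63.8 to 104 5p reads for each 3p read in db/db libraries and 69.6 to 98.2 in WT libraries. The means were 88.0 ± 16.5 in db/db and 88.2 ± 10.5 in WT libraries (SD, n = 6 each), so both arms of miR-486a stood higher in db/db libraries by about the same factor. Over the b rows the ratio was 556 ± 115 in db/db libraries and 442 ± 194 in WT libraries (SD, n = 6 each), on the few reads of miR-486b-3p.

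Such a preference for 1 arm was common in these libraries. Among 91 miRNAs with both arms listed and a summed mean of at least 100 RPM, 37 had a ratio over 100 in favour of either arm, and the 5p arm was the higher in 51. With both genotypes pooled, the SD of the log2 ratio within genotypes was 0.24 for miR-486a, the smallest of the 19 miRNAs whose arms both averaged at least 100 RPM (median 0.34, highest 0.82). miR-151 was close, also at 0.24, and miR-199a stood at 0.27. For miR-486b the SD was 0.44. The scarcer arm of miR-486b averaged below 100 RPM, and counting error alone is larger there.

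**Figure D2:**
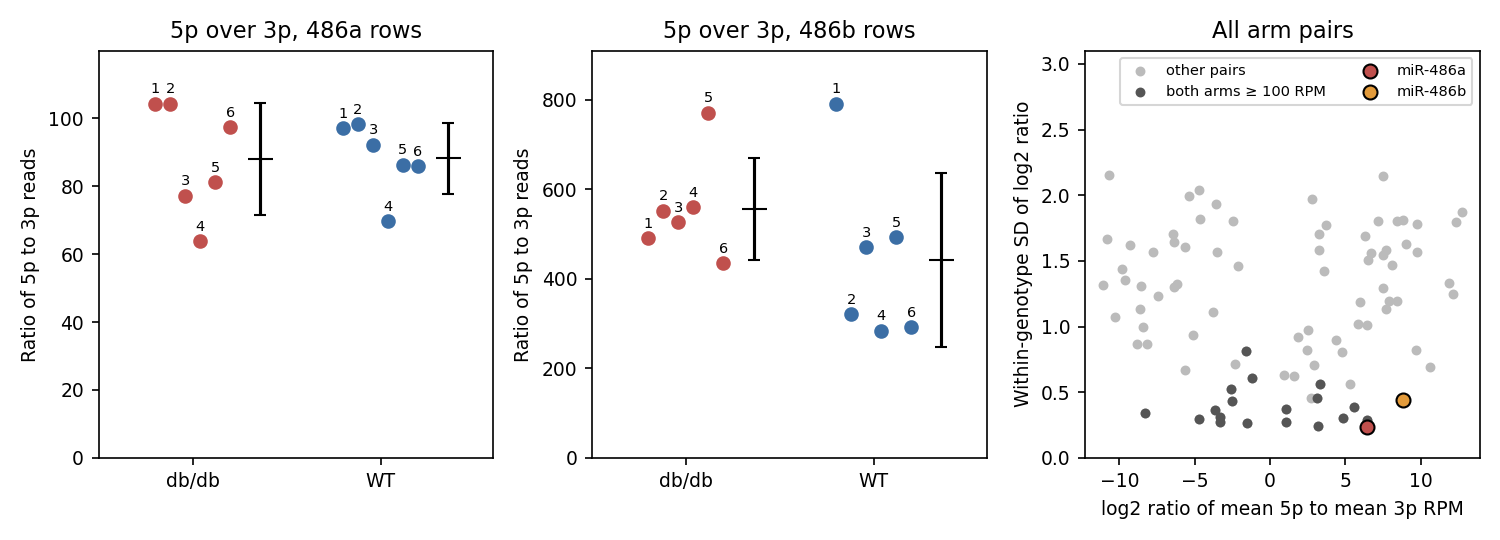
Left and middle, reads of the 5p arm for each read of the 3p arm in every library for the a and the b rows, with mean ± SD (n = 6 each); right, for 91 miRNAs, the spread of the log2 ratio between libraries of a genotype against the log2 ratio of mean arm levels. The a rows averaged 88.0 in db/db and 88.2 in WT libraries. Among the miRNAs with both arms at 100 RPM or more, miR-486a had the smallest spread, with miR-151 close to it.

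The 5p rows varied between libraries of a genotype far more than counting error allows. The coefficient of variation of miR-486a-5p was 18.2% over db/db libraries and 25.9% over WT libraries, where counting alone gives 0.633 to 1.10%. For miR-486a-3p it was 10.2% over db/db libraries, at the upper end of the 5.71 to 10.2% that counting alone gives, and 26.1% over WT libraries. On the log2 scale the SD within genotypes was 0.36 for miR-486a-5p and 0.32 for miR-486a-3p. The median was 0.32 over the 147 rows that averaged 100 RPM or more. WT library 5 carried much of the WT spread: without it the log2 difference of miR-486a-5p was 0.37, that of miR-486a-3p 0.39 and that of miR-486b-3p -0.09. Without WT 4 and db/db 6 miR-486a-5p stood at 0.49 and miR-486a-3p at 0.60. With any single library left out the difference of miR-486a-5p was 0.37 to 0.62.

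The size of the difference was not even over the library numbers, which the labels do not explain. They were split into 1 to 3 and 4 to 6 because an earlier analysis of these values had found other miRNAs to differ between these sets. In numbers 1 to 3 miR-486-5p averaged 23108 ± 2446 RPM in db/db and 18261 ± 1809 RPM in WT libraries (SD, n = 3 each), a log2 difference of 0.34. In numbers 4 to 6 it averaged 20861 ± 5467 RPM in db/db and 12801 ± 3870 RPM in WT libraries (SD, n = 3 each), a log2 difference of 0.72. Within each set of numbers all 9 pairs of a db/db and a WT library had the db/db library higher. The rows were picked with their difference known, and how many of all rows separate in this way was not counted. Numbers 4 to 6 hold the lowest library of all, WT 5 at 8659 RPM, and the highest, db/db 6 at 27147 RPM. The difference between the sets was not tested.

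**Figure D3:**
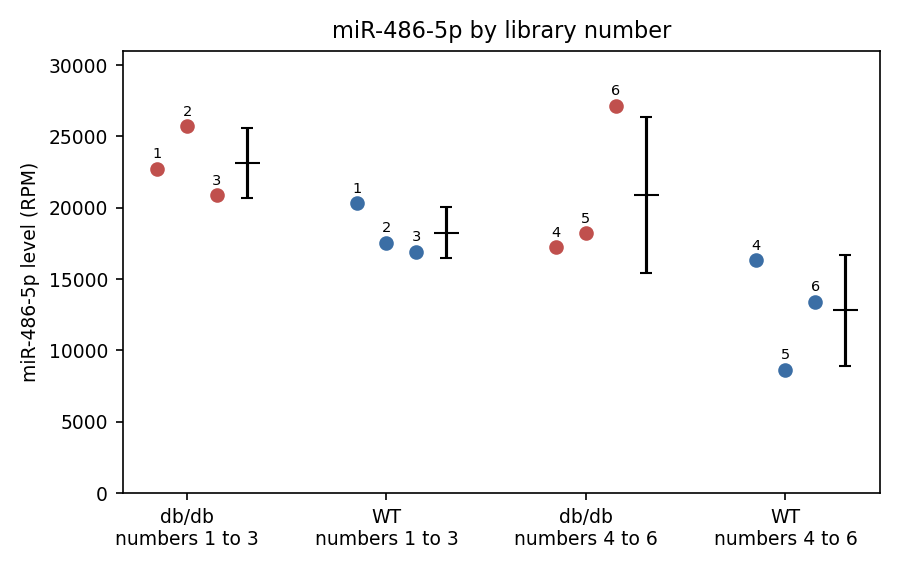
Level of miR-486-5p in RPM (mean of the a and b rows) in every library, split by genotype and by library number, with mean ± SD (n = 3 each). In both sets of numbers the 3 db/db libraries lay above the 3 WT libraries, and the WT libraries numbered 4 to 6 were the lowest 3 of all.

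Red blood cells are a second source of miR-486-5p besides muscle, and in bulk preparations more red cells and more RNA per cell cannot be told apart. An abundant miRNA of theirs, miR-451a, which is cut by Argonaute 2 in place of Dicer, stood at 290 to 3721 RPM in db/db libraries (median 1641) and at 850 to 1685 RPM in WT libraries (median 1131). db/db library 1 was the lowest of all and db/db library 6 the highest, so the db/db range enclosed the WT range. Its log2 difference was 0.26 ± 0.27 (SE; limma adjusted p = 0.717). miR-144-5p and miR-144-3p, cut from the neighbouring hairpin, averaged 39.7 ± 40.0 and 10.5 ± 7.43 RPM in db/db libraries and 31.4 ± 9.29 and 6.92 ± 5.87 RPM in WT libraries (SD, n = 6 each), and miR-144-5p was at 0 in 1 db/db library, number 1. Of these 3 cluster miRNAs 2 had positive values and 0 passed. Their summed level was 293 to 3852 RPM in db/db and 895 to 1717 RPM in WT libraries.

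Over all 12 libraries miR-486-5p did not keep step with miR-451a, and db/db library 1 stood farthest apart. In db/db libraries there were 7.29 to 78.4 reads of miR-486-5p for each read of miR-451a, with 78.4 in library 1 and at most 14.4 in the other 5. In WT libraries the ratio was 6.72 to 20.9. In db/db library 1 miR-486-5p was at 22746 RPM, the third highest level of the 12 libraries, while miR-451a was at 290 RPM, its lowest. The other 5 db/db libraries had the same order by both miRNAs, whereas in WT libraries 0 of 6 had the same rank by both. Over the 12 libraries Pearson's r of the log2 levels was 0.13 (permutation test, p = 0.676, or 0.778 adjusted over 144 rows) and Spearman's rho 0.27 (permutation test, p = 0.404, or 0.577 adjusted). Without the 2 libraries farthest from the median of miR-486-5p, WT 5 and db/db 6, r was -0.14. db/db 6 held the highest level of both miRNAs, and r without db/db library 1 was not computed, so how far the low r rests on that library is not known. Within genotypes r was 0.32 over db/db libraries, with library 1 among them, and -0.42 over WT libraries. The mean log2 ratio of miR-486-5p to miR-451a was 3.93 ± 1.20 in db/db and 3.66 ± 0.74 in WT libraries (SD, n = 6 each), and without db/db library 1 the difference of 0.27 turned to -0.21. The part of red cells in the level of miR-486-5p was not tested.

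The 3 miRNAs tested that are abundant in red cells but made in most tissues gave no common direction. miR-92a-3p, whose hairpins lie in a pair of polycistronic clusters, stood at 0.51 ± 0.15, miR-16-5p at -0.25 ± 0.14 and miR-25-3p at -0.16 ± 0.18 (log2 difference, SE; limma adjusted p = 0.109, 0.717 and 0.724).

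Over the 12 libraries the levels of miR-125b-5p and let-7d-3p followed miR-486-5p most closely by Pearson's r. Among 144 other rows averaging 100 RPM or more, miR-125b-5p, a broadly expressed miRNA of the lin-4 family, had the highest Pearson's r over the 12 libraries, 0.93 (permutation adjusted p = 0.00144), with a Spearman's rho of 0.86 (permutation adjusted p = 0.0107). It stood at 35757 to 65212 RPM in db/db libraries (median 46699) and at 24852 to 42006 RPM in WT libraries (median 39373). Its log2 difference between genotypes was 0.36 ± 0.13 (SE; limma adjusted p = 0.351).

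The relation of miR-486-5p and miR-125b-5p was present within each genotype. This measure is independent of the genotype difference by which the miR-486 rows were picked, which the pooled p-values of likeness include. It is not independent of the choice of miR-125b-5p, which was named for its pooled r over the same 12 libraries. r was 0.90 over the 6 db/db libraries and 0.97 over the 6 WT libraries. After each genotype was centred on its own mean it was 0.90 (permutation adjusted p = 0.00535, over 144 rows), and without WT 5 and db/db 6 it was 0.85. There were 0.416 to 0.522 reads of miR-486-5p for each read of miR-125b-5p in db/db libraries and 0.348 to 0.498 in WT libraries, a mean of 0.470 ± 0.0461 in db/db and 0.418 ± 0.0483 in WT libraries (SD, n = 6 each). Set against miR-125b-5p, miR-486-5p was thus 1.12-fold higher in db/db libraries.

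let-7d-3p, the scarcer arm of let-7d, had an r of 0.92 (permutation adjusted p = 0.00144) and a rho of 0.85 (permutation adjusted p = 0.0107), or 0.90 with each genotype centred (permutation adjusted p = 0.00688). miR-92a-3p, let-7a-5p and let-7c-5p followed with r of 0.85, 0.85 and 0.85 (permutation adjusted p = 0.00264, 0.00804 and 0.00819), and with rho of 0.85, 0.90 and 0.86 (permutation adjusted p = 0.0107, 0.00792 and 0.0107). Centred within genotypes these 3 were at 0.75, 0.76 and 0.85 (permutation adjusted p = 0.0258, 0.0429 and 0.00230). Without WT 5 and db/db 6 the r was 0.86 for let-7d-3p, and 0.83, 0.88 and 0.78 for the 3. At the other end stood miR-378c at -0.90 and miR-30a-5p at -0.90 (permutation adjusted p = 0.00416 and 0.00144), with rho of -0.80 and -0.87 (permutation adjusted p = 0.0228 and 0.0107) and r of -0.80 and -0.86 without WT 5 and db/db 6. miR-30a-5p, an abundant miRNA of heart muscle, was at 23746 to 33446 RPM in db/db libraries and at 26248 to 39610 RPM in WT libraries, with log2 difference -0.19 ± 0.12 (SE; limma adjusted p = 0.717).

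Of the 5 miRNAs with the highest r, 2 stayed among the highest 5 with each genotype centred, 3 without WT 4 and db/db 6, and 4 without WT 5 and db/db 6. Likeness to miR-486-5p was not rare. Of the 144 rows 42 had a permutation adjusted p under 0.05 over the 12 libraries and 35 did with each genotype centred, in both directions. The count was 26 by Spearman's rho and 21 without WT 5 and db/db 6. All levels are shares of the same total, so a higher share of some lowers the others. db/db 6, highest in miR-486-5p, was also the shallowest library, and without it and WT 4 the r of miR-125b-5p was 0.94 and that of let-7d-3p 0.91. The cause of the shared pattern was not tested.

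**Figure D4:**
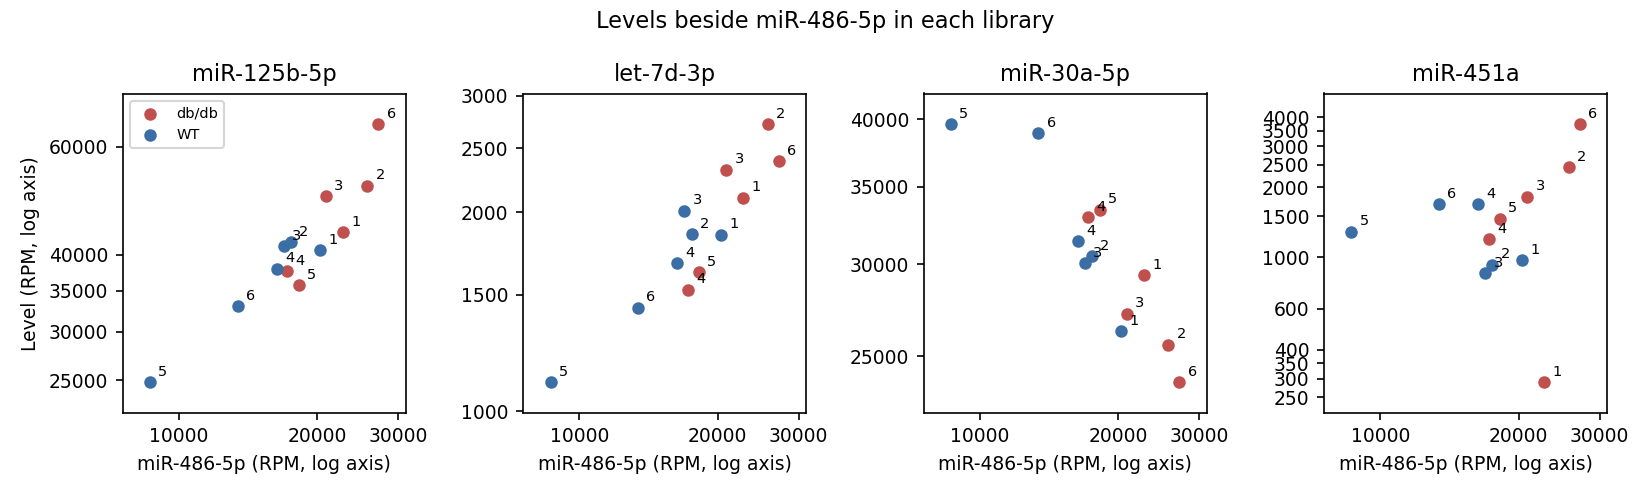
Level in RPM of 4 miRNAs against that of miR-486-5p in the same library on log axes, db/db red and WT blue, with library numbers. miR-125b-5p and let-7d-3p were higher where miR-486-5p was higher in both genotypes and miR-30a-5p was lower. Over all 12 libraries miR-451a did not follow miR-486-5p, and its lowest level was in db/db 1.

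Of 3 pairs of rows within the locus, the 5p rows moved as one and the 3p rows followed less closely. miR-486-5p and miR-486a-3p had an r of 0.86 (permutation test, p = 0.000890, adjusted 0.00133) and a rho of 0.65 (permutation test, p = 0.0257, adjusted 0.0385) over the 12 libraries. The third pair in the adjustment was the a and b rows of the 5p arm. Pooled values include the genotype difference with which the rows were picked, so these p-values do not measure likeness within genotypes. Within genotypes r was 0.15 over db/db and 0.91 over WT libraries, and it was 0.57 over all without WT 5 and db/db 6. For miR-486b-3p r was 0.57 (permutation test, p = 0.0521, adjusted 0.0521) and rho 0.39 (permutation test, p = 0.208, adjusted 0.208), with r of 0.91 over db/db and 0.53 over WT libraries. Without WT 5 and db/db 6 the pooled r was -0.06, as the genotypes then ran in opposite directions, with r of 0.86 over the other 5 db/db libraries and -0.57 over the other 5 WT libraries.

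Muscle is the other main source of miR-486, and no miRNA of the muscle list, which does not hold miR-22-3p, passed the test. Of 8 fixed, 7 were listed and tested: 2 had positive values, 5 negative, and 0 passed, with a median log2 difference of -0.26 against -0.04 over all 646 rows. miR-133a-3p stood at 0.07 ± 0.11, and miR-1a-3p, made from the same transcripts, at -0.25 ± 0.14 (SE; limma adjusted p = 0.789 and 0.716). miR-133b-3p, from another locus, was at -0.29 ± 0.15 (SE; limma adjusted p = 0.600). The summed level of the list was 341799 to 444572 RPM in db/db and 372889 to 425875 RPM in WT libraries.

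Blood leukocyte and endothelial miRNAs did not pass either. Of the 4 leukocyte miRNAs 2 had positive and 2 negative values (median -0.28), and their summed level was 2906 to 6701 RPM in db/db and 3225 to 5087 RPM in WT libraries. miR-142a-3p was at 0 in 2 db/db libraries and 1 WT library. The myeloid miR-223-3p was at 175 to 289 RPM in db/db and 306 to 478 RPM in WT libraries. It stood at -0.72 ± 0.22 and the lymphocyte miR-150-5p at 0.20 ± 0.16 (SE; limma adjusted p = 0.109 and 0.717). Both arms of miR-126a, the endothelial miRNA, were negative, at 15588 to 25095 RPM in sum in db/db and 18852 to 29569 RPM in WT libraries. Their part in the result was not tested.

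miRNAs of like abundance set a scale for the miR-486 values. The 5p rows ranked 13th and 14th by mean RPM over the 12 libraries. Just above were miR-26a-5p (0.02 ± 0.12) and the endothelial miR-126a-3p (-0.30 ± 0.14), as log2 differences (SE; limma adjusted p = 0.950 and 0.504). Just below were miR-99a-5p (0.16 ± 0.13) and miR-29a-3p (0.05 ± 0.13), which restrains collagen genes (SE; limma adjusted p = 0.717 and 0.885). In db/db libraries the 5p rows averaged more than each of these 4 miRNAs, and in WT libraries less than each. These 4 were taken for their like means and the 5p rows with their difference known, so this restates that difference.

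**Figure D5:**
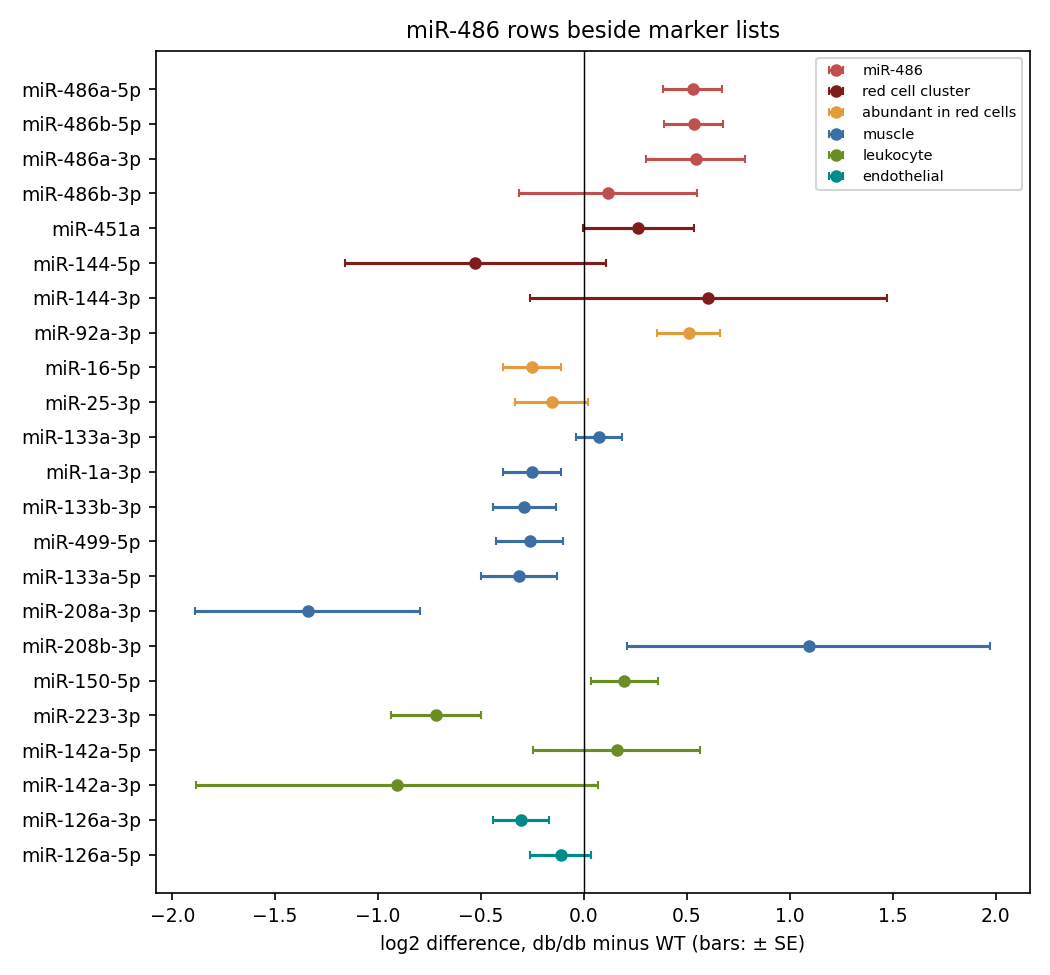
Difference of db/db minus WT libraries on the log2(RPM + 1) scale with its SE from the fit over all rows, for the 4 miR-486 rows and the marker lists, each list ordered by abundance. The 5p rows and miR-486a-3p stand between 0.53 and 0.54, and the lists fall on both sides of 0 except the 2 endothelial rows.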

How the data were processed

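Small RNA reads of 6 db/db and 6 WT samples of cardiac mitochondria came as 1 table with a column per sample. Total RNA received 3′ and 5′ adapters and the amplified libraries were purified on a polyacrylamide gel, per the labels' protocols. The authors called the deposited unit TPM. Each column sums to 1000000 and holds whole multiples of the worth of 1 read, so these deposited values were taken as RPM. Per the submitters' processing notes the genome was GRCm39; the sources used here do not name an aligner or miRNA annotation. With 1 total per column, 100% of values gave whole reads, to within 0.01. One read was worth 0.724 to 2.42 RPM, and a value of 0 allows 3 reads, or 2.17 to 7.27 RPM, for counting error only. Rows without a miRNA name (202 of 932) stayed in totals and tests.

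Groups and numbers came from the sample titles. limma 3.58.1 (R 4.3.3, two-sided, trend on abundance, no replicate block) was run on log2(RPM + 1) for the 646 rows averaging at least 1 RPM. The alternatives edgeR 4.0.16 (TMM, quasi-likelihood) and DESeq2 1.42.0 took the recovered reads as input; DESeq2's adjusted p was missing for 476 rows. Permutation tests were two-sided with 100000 resamples, adjusted over 144 rows for likeness and over 3 pairs within the locus. Mean depth of db/db and WT libraries did not differ beyond its spread (exact permutation test, p = 0.777). The limma step was tested on simulated data.

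The members, lists, split by number and doubted libraries were chosen with earlier results of these data known. By rule, named miRNAs were the members, the red cell cluster, abundant or called list members, neighbours by abundance, and the 5 highest and 2 lowest by r. The likeness of miR-451a, the ratio to miR-125b-5p, the order of libraries by miR-486-5p and miR-451a, and the remaining list members printed were chosen after their values were seen. One further list of miRNAs is not reported here. Sequences came from RefSeq (GRCm38.p6); no coordinates are given, since that build differs from the table's. Plots were drawn with Python 3.11.15 and matplotlib 3.10.9.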

Additional observations from a re-analysis of the deposited data

Results flagged for a closer look

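In 48 groups of 6 values, 4 had a library far from the rest, where chance flags about 1 in 20, or 2.4 here. The gap to the nearest library is given as a share of the group's range. It was 0.900 for the ratio of miR-486-5p to miR-451a, which stood at 78.4 in db/db library 1 with 14.4 as the next value. For miR-144-5p it was 0.667, with 116 RPM in db/db library 6 and 38.7 RPM next. miR-99a-5p had 0.663, from 21478 RPM in db/db library 6 and 18990 RPM next. Depth had 0.628, as db/db library 5 held 1382046 reads and the next 773784. None of the 4 miR-486 rows had such a library in either genotype.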

How the results depend on the processing

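The log2 difference of miR-486-5p stayed positive in all 30 alternatives, between 0.34 and 0.72, and that of miR-486a-3p in 29, between 0.36 and 0.73. miR-486b-3p ranged from -0.09 to 0.31. What moved was the number of rows called, with 1 row and 0 miR-486 rows in limma as reported. limma called 0 rows with a pseudocount of 0.1 or of 10 RPM, no filter on low values, a mean of at least 10 RPM, quantile normalization, no abundance trend, or without WT 4 and db/db 6 (36 to 56 rows at an unadjusted p under 0.05). The 2 miR-486-5p rows were called in each of the following, among 2 rows after median-of-ratios scaling, 3 in libraries 4 to 6 alone, 10 with the sets of numbers as a factor, 3 by edgeR, 8 by DESeq2 and 9 by edgeR with that factor. In libraries 1 to 3 alone limma called 1 row and 0 miR-486 rows. Leaving out 1 library gave 0 to 7 rows and 0 to 2 miR-486 rows, 2 without db/db 4, db/db 5, WT 1 or WT 3. The causes were not tested. Whether shared numbers pair the libraries is not given by the labels and was not tested. Deviations of libraries with the same number correlated at -0.06 to 0.31, over 0.1 in 2 of 6 pairs. Only 1 db/db and 2 WT libraries correlated best with their own number. With the replicate block limma called 9 rows and edgeR 11, both with 2 miR-486 rows, at a log2 difference of miR-486-5p of 0.53 and 0.58. The r of miR-451a with miR-486-5p turned to -0.11 without WT 4 and db/db 6 and to -0.14 without WT 5 and db/db 6. Each of these settings leaves out db/db 6, highest in both miRNAs, and keeps db/db 1. The difference in the log2 ratio of miR-486-5p to miR-451a was -0.21 to 0.48 with 1 library left out, and that of the 5p to 3p ratio -0.01 to 0.13. At 17 to 41 reads per library, miR-486b-3p is limited by depth. The edgeR fits with the block or the factor and the ratio to miR-125b-5p were added after seeing the data.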
